A study of Mus musculus with 9 samples.

Results

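Type 2 cytokine genes were measured in 4 myeloid populations sorted from inflamed mouse lung. The genes were Il4, Il13, Il5, Il9, Il3, Csf2 and Il10, taken because their products are the type 2 cytokines or are commonly made beside them. On the Affymetrix mouse array used, 7 probe sets carried 1 of these symbols alone, 1 for each of the 7 genes, out of 34945 probe sets with a single symbol for 18193 genes. All cells came from 4get females of BALB/c background, aged 6 to 8 weeks. Every group had been given intratracheal IL-25 (0.5 µg a day in 50 µL, over 4 days), so that no group was untreated. In 4get mice a green fluorescent protein (GFP) is read from the Il4 transcript, and the sort used it. T2M (type 2 myeloid) cells were sorted as GFP-positive, without surface IL-5 receptor alpha, F4/80-positive, low in MHC class II and intermediate for Gr-1. Eosinophils were sorted as GFP-negative, IL-5 receptor-positive, F4/80-negative, low in MHC class II and high for Gr-1. Neutrophils were sorted as negative for GFP, the receptor and F4/80, low in MHC class II and positive for Gr-1. Macrophages were sorted as negative for GFP and the receptor, positive for F4/80 and MHC class II and negative for Gr-1. Cells positive for CD11b were enriched first, each array held a pool from 4 donors, and 400000 cells were sorted for it. There were 3 arrays of T2M and 2 arrays of each other label.

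Interleukin 4 and interleukin 13 signal through receptors that share the IL-4 receptor alpha chain and activate STAT6, and in lung they drive mucus, eotaxins and alternative macrophage activation. Interleukin 5 governs the production and survival of eosinophils, interleukin 9 acts on mast cells, interleukin 3 and GM-CSF (the product of Csf2) sustain myeloid cells through receptors that share a beta chain with the IL-5 receptor, and interleukin 10 restrains inflammation. T helper cells, group 2 innate lymphoid cells, mast cells, basophils and eosinophils are the known sources of the type 2 members. Most of the genes lie in 1 stretch of mouse chromosome 11, with Il4, Il13 and Il5 near each other and Il3 beside Csf2, while Il9 is on chromosome 13 and Il10 on chromosome 1.

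The sequence upstream of Il4, Il13 and Il5 is shown because these 3 clustered genes had the highest differences between T2M and the mean of the other labels. Each window is the 250 bases before the outermost RefSeq start in GRCm38.p6, on the strand of the gene, and capitals mark GGAAA or its reverse complement TTTCC, the core letters that NFAT proteins, the calcium-driven activators of cytokine genes, are known to bind.
Il4, minus strand, chr11:53618666-53618915: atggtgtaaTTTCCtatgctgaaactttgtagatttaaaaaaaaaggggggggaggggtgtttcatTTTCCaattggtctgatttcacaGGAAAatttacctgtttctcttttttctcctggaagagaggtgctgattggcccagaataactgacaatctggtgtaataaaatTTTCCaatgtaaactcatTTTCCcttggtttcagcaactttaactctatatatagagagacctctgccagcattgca
Il13, minus strand, chr11:53634703-53634952: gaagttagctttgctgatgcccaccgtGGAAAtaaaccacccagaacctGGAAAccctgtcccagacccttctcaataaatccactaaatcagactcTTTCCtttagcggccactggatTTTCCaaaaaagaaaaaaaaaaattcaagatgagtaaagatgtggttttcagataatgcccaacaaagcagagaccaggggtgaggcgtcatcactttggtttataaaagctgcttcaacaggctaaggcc
Il5, plus strand, chr11:53720544-53720793: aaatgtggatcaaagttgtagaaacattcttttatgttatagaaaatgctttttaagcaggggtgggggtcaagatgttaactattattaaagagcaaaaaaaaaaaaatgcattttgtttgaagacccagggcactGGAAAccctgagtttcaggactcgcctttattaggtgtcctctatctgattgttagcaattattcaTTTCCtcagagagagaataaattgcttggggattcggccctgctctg
These letters occur 5 times in the Il4 window, 4 times in that of Il13 and 2 times in that of Il5. All 6 members with a promoter in the table held at least 1, as did 55.6% of all 32851 windows of this length. The letters TTCNNNNGAA, of the kind STAT6 binds, occurred once in the Il4 window, where they overlap a marked GGAAA, and once in that of Il9, and in 5.85% of all windows. The letters GATA, on either strand, were found in 5 of the 6 windows and in 53.6% of all windows, and not in that of Il4. The table holds a second, inner Il4 start, whose window (chr11:53617339-53617588) holds these letters 3 times and the marked NFAT core 0 times. TGANTCA, the AP-1 site, was found in 1 of the 6, that of Il9, and in 6.75% of all windows. A match is a description of letters and not a bound site.

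The labels were set against marker genes. The mean log2 level of 9 eosinophil markers (among them Ccr3, Siglecf, Epx and Prg2) ran from 8.96 to 9.47 on T2M arrays, against 5.88 to 6.75 on arrays labelled eosinophils. The mean of 11 neutrophil markers ran from 11.4 to 11.9 on eosinophil-labelled arrays, against 7.66 to 9.07 on neutrophil-labelled arrays. All 9 eosinophil markers were called higher in T2M than in the mean of the other labels, where 2.50% of all genes were. The T2M gate had taken cells without the IL-5 receptor. The mean of 11 macrophage markers ran from 10.29 to 10.32 on neutrophil-labelled arrays, against 8.78 to 8.98 on macrophage-labelled arrays. Neutrophil markers averaged 7.78 to 8.75 on T2M arrays, within their span on neutrophil-labelled arrays. Neutrophil-labelled replicate 2 correlated at 0.952 with both macrophage-labelled arrays and at 0.922 with its own replicate. The T2M, eosinophil and neutrophil labels thus go against these markers, and macrophage-labelled arrays were not highest in macrophage markers. Every difference below is one between arrays so labelled, and cell names stand for labels. Array medians lay between 5.48 and 5.68, replicate arrays correlated at 0.922 to 0.974, and the macrophage pair at 0.995, so that separate pools and 1 RNA on both arrays cannot be told apart for macrophages. For actin control probe sets, the 3′ minus the 5′ level was 0.61 for T2M replicate 1, 0.54 for eosinophil-labelled replicate 1, and -0.10 to 0.03 for the other arrays. For Gapdh control probe sets it was 3.43, 2.35 and 2.97 on T2M and 2.41 and 1.09 on eosinophil-labelled arrays. On neutrophil-labelled arrays it was 2.20 and 1.45, and on macrophage-labelled arrays 1.02 and 1.20. This 3′ excess differed between labels, and its part in the differences below was not tested.

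Il4 and Il13 stood higher on every T2M array than on every other array, 2 of 7 members against 3.39% of all 18193 genes. The same 2 of 7 members passed the test as higher in T2M than in the mean of the other labels, against 2.50% of all genes. Il4, which encodes IL-4, was at log2 levels of 7.69, 9.80 and 8.36 on the T2M arrays, against 5.10 and 5.37 on eosinophil-labelled, 6.43 and 4.67 on neutrophil-labelled and 4.89 and 4.77 on macrophage-labelled arrays. The highest array of another label, neutrophil-labelled replicate 1, was still below the lowest T2M array, and the spread among T2M arrays was itself 2.11. Il4 was 10.6-fold higher in T2M than in the mean of the other labels (log2 difference 3.41, SE 0.51, 95% interval 2.24 to 4.58, limma adjusted p = 0.0107). The sort chose T2M cells by a reporter of Il4, so this difference checks the sort and is no separate finding. For the same reason Il4 adds nothing to the member counts set beside shares of all genes, here and below. Without T2M replicate 2, which had the highest value, the difference was 2.82 (adjusted p = 0.0305).

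Il13 encodes the cytokine that shares most actions with IL-4 and was no part of the sort. Its log2 levels were 6.16, 6.69 and 6.02 on T2M arrays, against 5.34 and 5.09 on eosinophil-labelled, 5.05 and 4.87 on neutrophil-labelled and 4.48 and 4.59 on macrophage-labelled arrays. The T2M arrays did not overlap with any other. The mean was 6.29 ± 0.35 in T2M (SD, n = 3), against 5.21 ± 0.18, 4.96 ± 0.13 and 4.53 ± 0.08 in eosinophil-, neutrophil- and macrophage-labelled cells (n = 2 each). Il13 was 2.61-fold higher in T2M than in the mean of the other labels (1.39, SE 0.20, interval 0.93 to 1.84, adjusted p = 0.00929), and it stayed past the threshold in all 19 other fits of that contrast, with differences of 1.19 to 1.52 and adjusted p from 0.00561 to 0.0481. With dim genes left out Il13 was not tested, and that setting is not among the 19 fits. As RNA of whole sorted populations was measured, more cells with the transcript and more transcript per cell cannot be told apart.

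**Figure D1:**
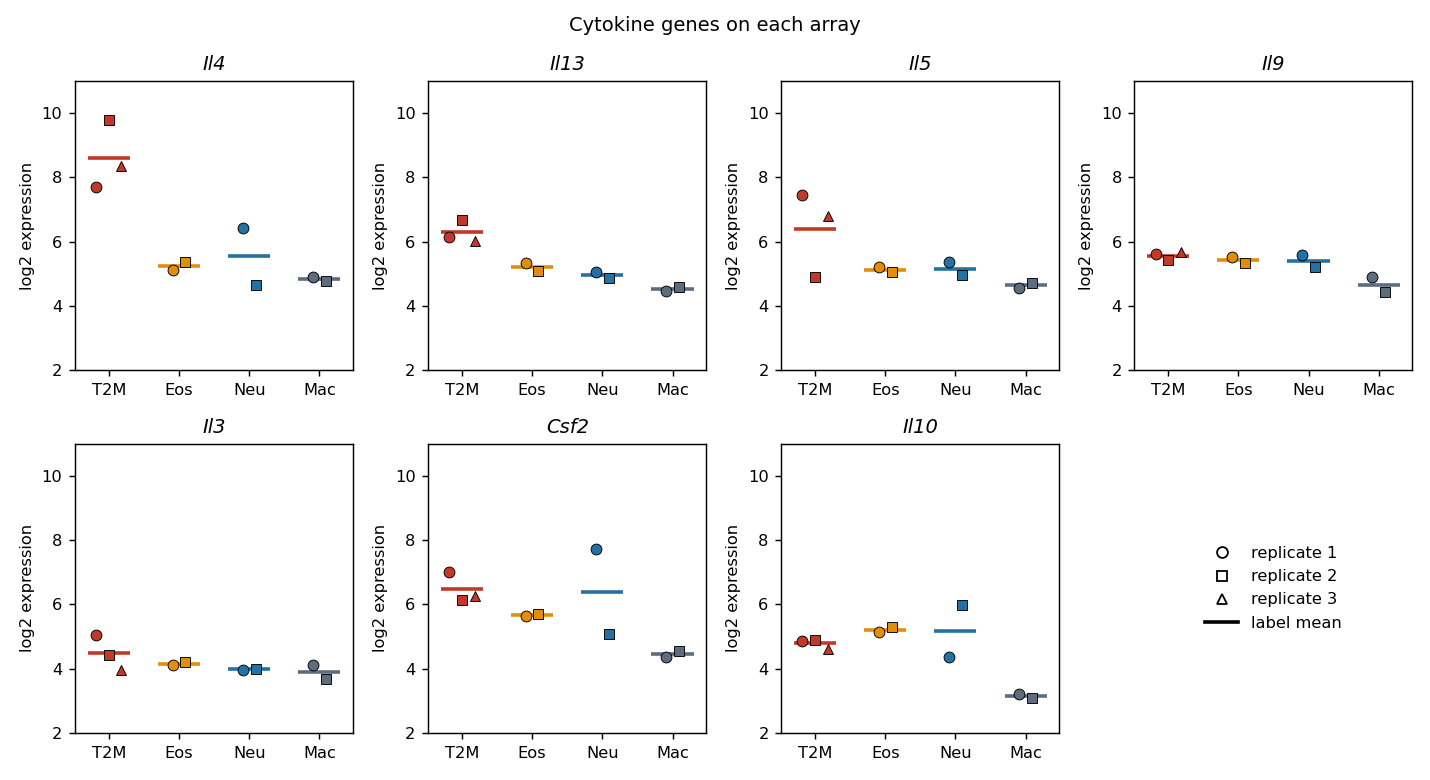
Log2 expression of the 7 cytokine genes (vertical axis) on each array, by label: T2M, eosinophils (Eos), neutrophils (Neu) and macrophages (Mac). Points are arrays, their shape gives the replicate number and bars are label means; Il4 and Il13 of all 3 T2M arrays lie above every other array, while T2M replicate 2 has an Il5 value of 4.90, among those of the other labels.

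Il5, the eosinophil growth and survival cytokine, split the T2M arrays. Its log2 levels were 7.45, 4.90 and 6.81 on T2M arrays, against 5.21 and 5.05 on eosinophil-labelled, 5.36 and 4.95 on neutrophil-labelled and 4.56 and 4.72 on macrophage-labelled arrays. T2M replicates 1 and 3 were the highest of all 9 arrays, and T2M replicate 2, the array with the highest Il4 and Il13, lay among the other labels. The residual SD within labels was 0.85, larger than that of 93.9% of genes, and the difference of 1.42 between T2M and the mean of the other labels did not pass the test (SE 0.49, interval 0.29 to 2.54, adjusted p = 0.136). Without T2M replicate 2 it was 2.16 (adjusted p = 0.0144), a value that rests on leaving out the low array.

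Mast cell and basophil markers were mixed in how they ran among the T2M arrays. The gene most like Il5 over the 9 arrays was Cpa3, mast cell carboxypeptidase (Pearson r = 0.99), at 7.97, 3.75 and 6.47 on T2M arrays and from 3.62 to 4.54 on the other 6. The basophil gene Mcpt8 stood at 7.39, 5.83 and 5.79 on T2M arrays, and Fcer1a, the IgE receptor alpha chain, at 5.58, 3.22 and 3.22, so replicate 3 was as low as replicate 2. The mast cell genes Mcpt4 (3.73, 3.39 and 5.51) and Cma1, mast cell chymase (5.62, 6.06 and 7.11), were highest on replicate 3, and the tryptase gene Tpsb2 (5.60, 5.83 and 5.78) was lowest on replicate 1. Like Cpa3, Ms4a2 (3.94, 3.69 and 3.76), Hdc (11.13, 10.64 and 11.07) and Gata2 (7.45, 7.16 and 7.31) ran in the order of Il5. Of 12 such markers measured, Cpa3 among them, 5 were lowest on T2M replicate 2 among the T2M arrays and the other 7 were not. On T2M replicate 1, the array with the highest Il5, 8 of the 12 were highest among the T2M arrays. None of the 12 was called in T2M against eosinophils or against the mean of the other labels, where 4.46% and 5.93% of all genes were. Against neutrophils 1 was called higher, where 2.82% of all genes were called in either direction. Against macrophages 2 were higher and 1 lower, where 17.2% of all genes were called. The summed linear level of these markers ran from 2042 to 3104 on T2M, 7784 to 9723 on eosinophil-labelled, 411 to 1746 on neutrophil-labelled and 440 to 528 on macrophage-labelled arrays, and Hdc, the histamine-forming enzyme, which myeloid cells also express, was at 12.86 and 13.20 on the eosinophil-labelled arrays. The part of such cells in the Il5 values was not tested.

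Other genes that followed Il5 over the 9 arrays were Lypd6 (r = 0.983), Gjc1 (0.953), Aox3 (0.944) and Rpl39l (0.94). These correlations describe the arrays, which share labels and pools, and carry no test.

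Il4 and Il13 followed each other over the 9 arrays (r = 0.935, rho = 0.85), while Il4 and Il5 did so less closely (r = 0.506, rho = 0.517). The named genes most like Il4 were Epx, eosinophil peroxidase (r = 0.977), the ephrin receptor gene Ephb4 (0.975), Cyp26a1, a retinoic acid hydroxylase (0.97), Serpina11 (0.969) and Rassf9 (0.965). Epx was at 7.01, 7.53 and 7.33 on T2M arrays, against 5.01 and 5.09 on eosinophil-labelled, 5.75 and 4.34 on neutrophil-labelled and 4.57 and 4.50 on macrophage-labelled arrays, with the same neutrophil-labelled array raised as for Il4. Those most like Il13 were Slc24a3, a sodium-calcium-potassium exchanger (0.993), Ghr, the growth hormone receptor (0.975), Pla2g3, a secreted phospholipase (0.97), Cd59a, a complement inhibitor (0.966), and Ephb4 (0.961). Likeness was sought among 7615 named genes whose label means spanned at least 1 on the log2 scale.

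**Figure D2:**
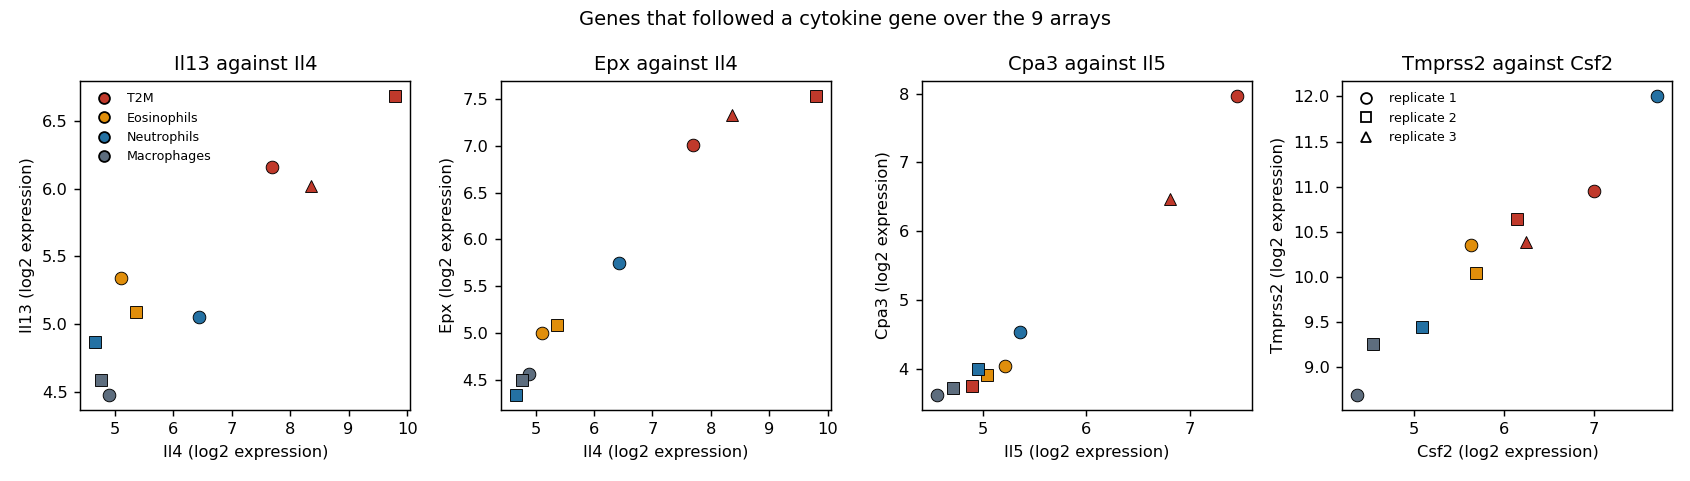
Log2 expression on the 9 arrays of Il13 and Epx against Il4, of Cpa3 against Il5 and of Tmprss2 against Csf2; colours are labels and shapes are replicate numbers. T2M replicate 2 is the highest array for Il4 (9.80) and lies with the other labels for Il5 (4.90) and Cpa3 (3.75).

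Csf2, which encodes GM-CSF, was led by an array outside T2M. Its log2 levels were 7.01, 6.15 and 6.25 on T2M arrays, against 5.64 and 5.69 on eosinophil-labelled, 7.71 and 5.09 on neutrophil-labelled and 4.37 and 4.54 on macrophage-labelled arrays. T2M did not overlap with the eosinophil- or macrophage-labelled arrays, and the neutrophil-labelled arrays lay on both sides of it. The difference against the mean of the other labels was 0.96 (SE 0.51, adjusted p = 0.313), and without neutrophil-labelled replicate 1 it was 1.40 (adjusted p = 0.0155). Leaving out an array of any label but T2M leaves that label with 1 array, which the fit assumes to vary like the other labels. Against neutrophils the difference of 0.07 (SE 0.66) became 1.38 without neutrophil-labelled replicate 1 and -1.24 without replicate 2. The genes most like Csf2 were Sema6a (r = 0.987), Tmprss2, a serine protease known from epithelium (0.977), Sparcl1 (0.977), Slco2b1 (0.977) and Akap5 (0.977), and Tmprss2 was at 12.00 and 9.45 on the neutrophil-labelled arrays. None of these 5 was called between T2M and the mean of the other labels, where adjusted p ran from 0.321 to 0.52.

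Il10, the gene of the anti-inflammatory cytokine IL-10, was lowest on macrophage-labelled arrays. Its log2 levels were 4.86, 4.90 and 4.62 on T2M arrays, against 5.14 and 5.29 on eosinophil-labelled, 4.35 and 5.99 on neutrophil-labelled and 3.20 and 3.08 on macrophage-labelled arrays. Every T2M array was below both eosinophil-labelled arrays, yet that difference of -0.42 did not pass the test (SE 0.42, adjusted p = 0.735). Il10 was 3.14-fold higher in T2M than in macrophage-labelled cells (1.65, SE 0.42, adjusted p = 0.0325). It was 4.21-fold higher in eosinophil-labelled than in macrophage-labelled cells (2.07, SE 0.46, adjusted p = 0.0182). In neutrophil-labelled cells it was 2.03 above macrophage-labelled cells, without passing (adjusted p = 0.0705). The neutrophil-labelled arrays differed by 1.64 from each other, and T2M minus neutrophils was -1.19 without replicate 1 of that label and 0.44 without replicate 2. Each value sets T2M against a single neutrophil-labelled array, and no direction is drawn from them. Genes most like Il10 were Susd1 (r = 0.966), Plekhf1 (0.951), Sstr2 (0.95), the pseudogene Slfn10-ps (0.943) and Cdkn1a (0.942), the cell cycle inhibitor.

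Il9 and Il3 showed the smallest spans of label means. Il9, a growth factor gene for mast cells and T cells, was at 5.61, 5.42 and 5.66 on T2M arrays, against 5.51 and 5.34 on eosinophil-labelled, 5.58 and 5.20 on neutrophil-labelled and 4.90 and 4.44 on macrophage-labelled arrays. T2M overlapped with the first 2 of these labels and lay above the macrophage-labelled arrays. Il3, the gene of multi-lineage colony-stimulating interleukin 3, was at 5.06, 4.42 and 3.97 on T2M arrays and from 3.66 to 4.20 on the other 6. T2M replicate 1 was the highest and the T2M arrays overlapped with every other label. Il9 was called higher in T2M than in macrophages (0.90, SE 0.24, adjusted p = 0.0386), and Il3 was called in 0 of 7 comparisons by limma, and likewise in 0 at an unadjusted p under 0.05.

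Genes that these mice cannot express gave a scale for such small differences. All mice were female, and 6 of 8 listed Y-linked genes were measured. Single array levels ran from 2.68 for Eif2s3y to 8.46 for Sry, and Il13 on T2M arrays (6.02 to 6.69) lay within this span. A level alone thus does not show that a transcript was detected. Differences of the Y-linked genes between arrays are used below. Their ranges over the 9 arrays ran from 0.61 to 1.32 on the log2 scale, against 1.23 for Il9, 1.39 for Il3, 2.21 for Il13, 2.90 for Il10, 2.90 for Il5, 3.34 for Csf2 and 5.13 for Il4. For T2M minus macrophages the Y-linked differences were all positive, from 0.16 to 1.09 with a median of 0.54, and 1 of them, Zfy2, was called. The Il9 and Il3 differences of 0.90 and 0.59 in that comparison lie within this range, whereas those of Il10 (1.65), Il5 (1.75), Il13 (1.76), Csf2 (2.01) and Il4 (3.79) lie above it. Il9 lies within it only through Zfy2 (1.09), as the next Y-linked gene, Usp9y, was at 0.77. For T2M minus the mean of the other labels the Y-linked differences were 0.09 to 0.57, which holds the values of Il9 (0.40), Il3 (0.47) and Il10 (0.28) and not those of the other 4 members. Here Il3 is held only through Zfy2 (0.57), as Usp9y, the next, was at 0.42. Genes at or below the median level, among them 6 of the 7 members (not Il4), had a median difference of 0.37 between T2M and macrophages, while genes above it had -0.40. With arrays set to a common median over the dimmer genes, a scaling chosen after seeing the data, Il9 (0.52, adjusted p = 0.136) and Il10 (1.28, adjusted p = 0.118) lost their calls against macrophages, and Il4 (3.41) and Il13 (1.38) kept theirs.

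By pair of labels, T2M differed from macrophages in the most members. Against macrophages, 4 of 7 members were called higher, Il4, Il13, Il9 and Il10, where 6.53% of all genes were. In 6 of 7 all T2M arrays lay above both macrophage-labelled arrays, as did 40.7% of all genes. The median difference of the 7 members was 1.75, against 0.18 over all genes. With the macrophage-labelled arrays counted as 1 sample, 0 members were called in this comparison, and 459 genes in all in place of 3123. Without macrophage replicate 1 or 2, Il4 (adjusted p = 0.0798 and 0.0756) and Il13 (0.0669 and 0.0511) lost their calls too, while each kept it in the other 7 fits with an array left out. Il9 was called in 2 and Il10 in 4 of the 9 such fits.

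Against eosinophils, 1 of 7 members was called higher, Il4 (3.38, SE 0.66, adjusted p = 0.0276), where 1.57% of all genes were. As Il4 was part of the sort, this call is no separate finding. Of the 7 members 4 did not overlap, as was true of 33.5% of all genes; Il4, Il13 and Csf2 lay above, 3 of 7 against 19.4% of all genes, and Il10 lay below. Il13 differed by 1.07 (SE 0.26, interval 0.49 to 1.66, adjusted p = 0.0562). The median over the members was 0.80, against 0.06 over all genes. Il4 lost its call without T2M replicate 2 (adjusted p = 0.0537) or 3 (0.0667), either eosinophil-labelled array (0.111 and 0.137) or either macrophage-labelled array (0.0654 each), and without T2M replicate 2 Il5 was called in its place (2.00, adjusted p = 0.0256).

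Against neutrophils, 1 of 7 members was called higher, Il13 (1.33, SE 0.26, adjusted p = 0.0386), where 1.25% of all genes were. Il4 differed by 3.07 (SE 0.66, interval 1.56 to 4.57, adjusted p = 0.0512). These 2 of 7 lay above without overlap, as did 10.7% of all genes. The median over the members was 0.50, against -0.03 over all genes. The Il13 call ended in each of the 9 fits without 1 array, with differences of 1.13 to 1.46. The comparisons with T2M share the T2M arrays.

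**Figure D3:**
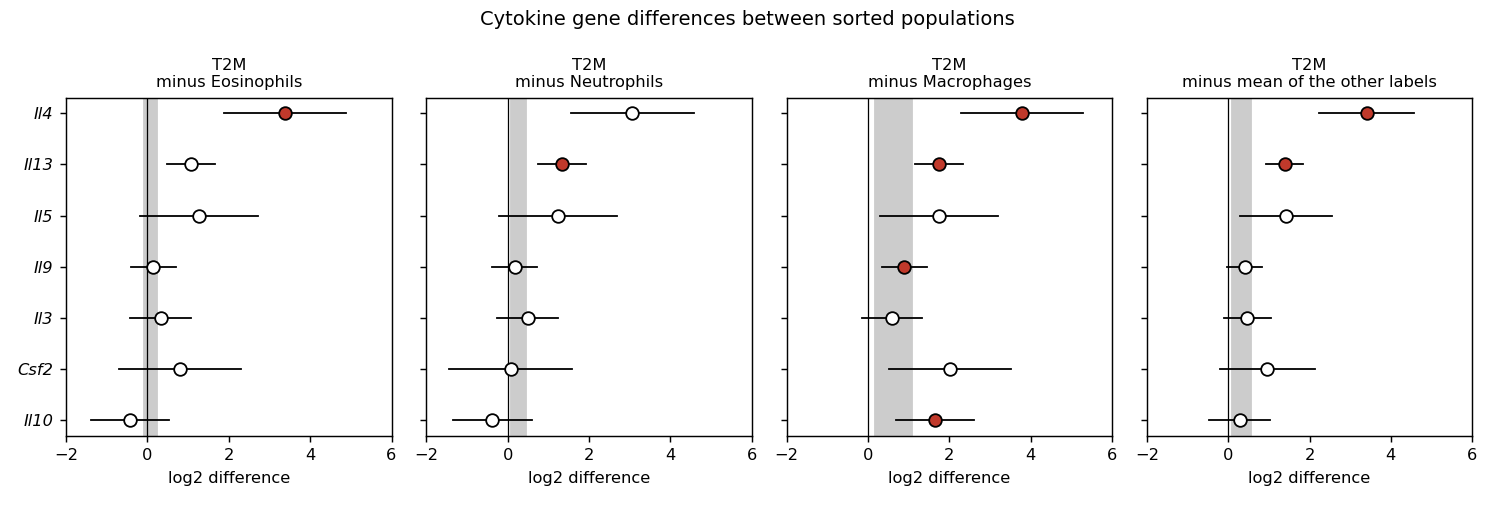
Log2 differences of the 7 cytokine genes (horizontal axis) for T2M against each other label and against their mean; lines are 95% intervals, filled points passed the test at adjusted p under 0.05, and the grey band spans the differences of the 6 Y-linked genes in the same comparison. Il4, Il13 and Il5 lie above the band in every panel, Il5 with no filled point.

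Between labels other than T2M, 1 cytokine gene passed the test in 1 of the 3 comparisons. Between eosinophils and neutrophils 0 of 7 were called by limma, where 7.88% of all genes were, and 0 of 7 had an unadjusted p under 0.05, where 21.6% of all genes did. Between eosinophil- and macrophage-labelled arrays Il10 was called higher in the eosinophil-labelled ones, 1 of 7 against 5.89% of all genes. That call was lost without either eosinophil-labelled array (adjusted p = 0.0654 and 0.0831), without either macrophage-labelled array (0.107 and 0.113), with the macrophage-labelled arrays averaged (0.11), without moderation of the spread (0.0768) and with the common median of the dimmer genes (0.0606). Between neutrophils and macrophages 0 of 7 were called, where 2.26% of all genes were, and 3 of 7, Il9, Csf2 and Il10, had an unadjusted p under 0.05, where 18.6% of all genes did.

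The order of the label means differed between members. For Il13 the order of label means was T2M, eosinophils, neutrophils and macrophages, and the neighbours eosinophils and neutrophils (0.25, SE 0.28) and neutrophils and macrophages (0.43, SE 0.28) did not pass the test. For Il4 the order was T2M, neutrophils, eosinophils and macrophages, where eosinophils minus neutrophils was -0.31 and eosinophils minus macrophages 0.41 (SE 0.72 each), neither past the test. For Il5, Il9 and Il3 T2M also had the highest mean and macrophages the lowest, for Csf2 T2M and neutrophils were next to each other at 6.47 and 6.40, and for Il10 eosinophils and neutrophils stood at 5.22 and 5.17 above T2M at 4.79. Of all neighbours in these orders, T2M and macrophages for Il10 were the only ones that passed the test. T2M and its neighbour below it had adjusted p = 0.0562 for Il13 and 0.0512 for Il4 (limma).

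Genes next to the cytokines on the chromosome were tested as well. Of 11 measured genes within 100 kb of a member, other than members, 0 were called between T2M and the mean of the other labels. As 5.93% of all genes were called there in either direction, 0 of 11 says little about these neighbours. Kif3a, the kinesin gene beside Il4, was higher in T2M than in eosinophils (1.91, SE 0.35, adjusted p = 0.023), with 0.30 against neutrophils (adjusted p = 0.787). Rad50, the DNA repair gene between Il13 and Il5, was lower in T2M than in macrophages (-1.85, SE 0.38, adjusted p = 0.0147), and Irf1, an interferon-response factor gene near Il5, differed by -1.24 from the mean of the other labels (adjusted p = 0.0873).

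Receptors for the member cytokines went both ways. Of 11 measured (of 12 listed), 1 was called higher and 1 lower in T2M than in the mean of the other labels, with a median difference of 0.19 against 0.05 over all genes. In either direction 5.93% of all genes were called there. The share was 4.46% against eosinophils, 2.82% against neutrophils and 17.2% against macrophages. Il5ra, the IL-5 receptor alpha chain, was higher (2.88, SE 0.47, adjusted p = 0.014) although the gate took receptor-negative cells, and Il10ra, the IL-10 binding chain, was lower (-2.04, SE 0.41, adjusted p = 0.0275). Il13ra1, the IL-13 binding chain, differed by -1.18 (adjusted p = 0.0692). Against eosinophils 2 were lower, Il13ra1 (-2.71, adjusted p = 0.0107) and Il10ra (-2.49, adjusted p = 0.0384), against neutrophils 0 of 11 were called, and against macrophages 3 were higher and 1 lower.

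Receptors that induce type 2 cytokines were listed as well. Of 8 measured (of 9 listed), limma called 0 in T2M against the mean of the other labels, where 5.93% of all genes were called in either direction, and the median difference was 0.13. Il1rap, which pairs with the IL-33 receptor, was lower in T2M than in eosinophils (-3.52, SE 0.66, adjusted p = 0.0245), and Il7r, shared by the IL-7 and TSLP receptors, was higher than in macrophages (2.95, SE 0.79, adjusted p = 0.039). Against eosinophils and against macrophages these were the only calls, 1 of 8 each, where 4.46% and 17.2% of all genes were called in either direction. Against neutrophils 0 of 8 were called, where 2.82% of all genes were, so that 0 of 8 says little. Il2ra, the IL-2 receptor alpha chain, differed by 1.22 from the mean of the other labels (adjusted p = 0.0749).

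Among 16 transcription factors known to act on the type 2 cytokine genes, 1 was called higher and 1 lower in T2M than in the mean of the other labels. In either direction 5.93% of all genes were called there. Gata1, an eosinophil and erythroid lineage factor that is also on the eosinophil marker list, was at 6.86, 8.39 and 8.12 on T2M arrays and from 3.35 to 4.31 on the other 6, a difference of 4.06 from the mean of the other labels (SE 0.35, adjusted p = 0.00219). Nfil3, a basic leucine zipper factor, was lower (-1.07, SE 0.23, adjusted p = 0.0322), and the other 14 were not called, among them Junb (-1.45, adjusted p = 0.133) and Gata2 (1.20, adjusted p = 0.0563). The median of the list was -0.32, against 0.05 over all genes.

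Of 14 measured genes (of 15 listed) that respond to IL-4 and IL-13 in myeloid cells, 4 were called higher and 0 lower in T2M than in the mean of the other labels, with a median difference of 0.53. The share of all genes called higher there was 2.50%. Arg1, arginase 1, was at 10.09 ± 0.26 in T2M (SD, n = 3), against 9.02 ± 0.02, 11.07 ± 0.57 and 4.53 ± 0.04 in eosinophil-, neutrophil- and macrophage-labelled cells (n = 2 each), so its difference of 1.89 (SE 0.22, adjusted p = 0.00476) came with a neutrophil level above that of T2M. Retnla, a resistin-like effector, differed by 1.24 (adjusted p = 0.00751) and Cish, a STAT5-induced suppressor, by 1.17 (adjusted p = 0.0459). Both differences came with a low macrophage level. Retnla means were 13.21 in T2M, 12.51 in eosinophils, 13.26 in neutrophils and 10.12 in macrophages. Cish means were 10.59, 10.89, 10.61 and 6.75 in the same order. Of the 14 genes, 0 had every T2M array above every other array, against 3.39% of all genes. Against eosinophils 1 was higher, Clec10a (2.00, adjusted p = 0.0269), against neutrophils 1 was lower, the eotaxin gene Ccl24 (-3.32, adjusted p = 0.0402), and against macrophages 6 were higher and 2 lower. In either direction, 4.46% of all genes were called against eosinophils, 2.82% against neutrophils and 17.2% against macrophages.

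Markers of lymphoid cells were examined as other known sources of the cytokines. Of 15 T cell and innate lymphoid markers measured, 1 was called higher in T2M than in the mean of the other labels, 1 was lower against eosinophils, 0 were called against neutrophils, and 4 were higher and 1 lower against macrophages. The shares of all genes called in either direction were 5.93%, 4.46%, 2.82% and 17.2% in these comparisons, in the same order. The summed linear level of the 15 markers ran from 1750 to 2894 on T2M and 1442 to 1698 on eosinophil-labelled arrays. It was 2022 to 2058 on neutrophil-labelled and 2828 to 3282 on macrophage-labelled arrays. The macrophage sums held a high Cd4, at 11.18 and 10.88 there and from 6.36 to 7.71 on the other arrays. The mean log2 level of the 15 ran from 6.40 to 6.80 on T2M and 6.13 to 6.22 on eosinophil-labelled arrays. It was 5.99 to 6.51 on neutrophil-labelled and 6.10 to 6.20 on macrophage-labelled arrays. The 3 measured CD3 chains, parts of the T cell receptor complex, ran differently from each other. Cd3e was at 6.83, 8.11 and 7.80 on T2M arrays and from 4.94 to 6.16 on the other 6, and was the marker called higher against the mean of the other labels (1.88, SE 0.36, adjusted p = 0.0248). Cd3d was at 6.41, 6.36 and 6.99 on T2M arrays, against 7.69 and 9.08 on eosinophil-labelled arrays, where it was the marker called lower (-1.80, SE 0.41, adjusted p = 0.0473). Cd3g was at 5.54, 4.75 and 6.28 on T2M arrays, lowest on replicate 2, and its difference of 0.89 from the mean of the other labels did not pass (adjusted p = 0.239). The part of lymphoid cells in the cytokine values was not tested.

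**Figure D4:**
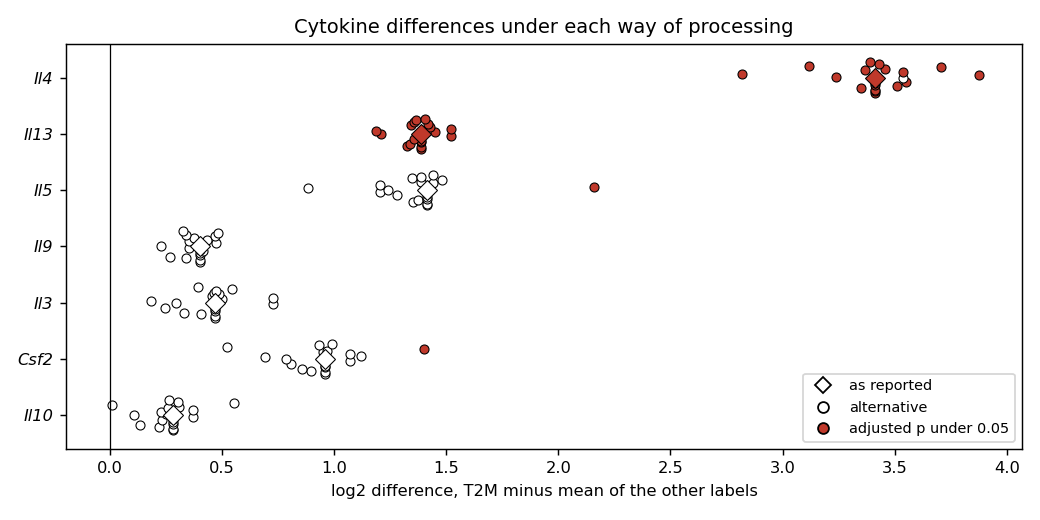
Log2 difference between T2M and the mean of the other labels (horizontal axis) for each cytokine gene as reported (diamonds) and under each alternative (circles). Filled symbols passed the test at adjusted p under 0.05. With dim genes left out only Il4 was tested. Il13 is filled throughout, at 1.19 to 1.52, and Il5 and Csf2 are each filled once, at 2.16 and 1.40.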

How the data were processed

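Per the file headers and the submitters' processing notes, the authors deposited probe set levels on the log2 scale for each array, and the notes name RMA, affy and limma; versions and settings are not given in the sources used here. A difference of 1 on this scale was read as 2-fold. The table held 45101 probe sets; 64 controls were left out, and platform annotation gave 1 symbol for 34945, several for 932 and none for 9160. For each of 18193 genes the probe set of highest mean was kept. Labels were compared on all 9 arrays by two-sided moderated tests (limma 3.58.1, R 4.3.3), with Benjamini-Hochberg adjustment over all genes of a comparison and a threshold of 0.05. The number of arrays limits the precision (median SE 0.31 for T2M against 1 label). Tested on simulated data with 18193 genes, the T2M against eosinophils fit called 86% of 50 genes shifted by 2 on the log2 scale and 4% of 50 shifted by 1. Promoters are RefSeq's (GRCm38.p6). The members and lists were chosen with earlier results of these data known. Genes named beyond the members are, for each list, up to 3 called and 2 uncalled with the largest differences, the 5 genes of highest correlation with a member whose label means span at least 1, and neighbours within 100 kb; marker genes whose arrays are printed beside Il5 and Il4 were chosen after their values were seen. Arrays were treated as independent pools; if any share RNA, p-values measure technical spread only. Alternatives covered probe set choice, dim genes, scaling, quantile normalization, variance model, array weights, labels fitted, averaged macrophage arrays, the replicate block and single arrays left out. Plots were made in matplotlib 3.10.9 (Python 3.11.15).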

Additional observations from a re-analysis of the deposited data

How the results depend on the processing

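Of 980 recomputed differences of single genes, 868 kept their direction and their side of the threshold, 62 lost a call, 28 gained one and 22 changed direction. Most of the 980 were of differences not called as reported, so 868 does not measure how well calls held. With no array left out, Il13 against neutrophils and Il9 against macrophages each lost their call in 5 of 11 other fits. Il4 against eosinophils lost it in 4 of 12, and Il13 against the mean of the other labels in 0 of 10. The number of members called changed as follows, and the cause was not tested unless stated. In T2M against eosinophils it was 2 with a trend in the spread or with array weights and 0 with no moderation, with the compared labels only, with the macrophage arrays averaged or with the replicate block, in place of 1. In T2M against neutrophils it was 2 with a common median or a trend and 0 with no moderation, array weights, the compared labels only, averaged macrophage arrays or the replicate block, in place of 1. In T2M against macrophages it was 1 without dim genes (which leaves 1 member tested) or without moderation, 2 with quantile normalization, with the replicate block or with a common median of the dimmer genes (chosen after seeing the data), 0 with averaged macrophage arrays, 5 with the compared labels only and 6 with array weights, in place of 4. In eosinophils against macrophages it was 0 without dim genes, without moderation, with averaged macrophage arrays or with the dimmer-gene median, and 2 with array weights or the compared labels only, in place of 1. In neutrophils against macrophages it was 1 with a trend or array weights, in place of 0. In T2M against the mean of the other labels it was 1 without dim genes, without moderation (Il4 adjusted p = 0.0885) or with the replicate block (Il4 adjusted p = 0.0543), in place of 2. Leaving out each array in turn gave 0 to 1, 0 to 2, 0 to 5, 0 to 1, 0 to 2, 0 to 2 and 2 to 3 called members for T2M against eosinophils, T2M against neutrophils, T2M against macrophages, eosinophils against neutrophils, eosinophils against macrophages, neutrophils against macrophages and T2M against the mean. Counts of all genes moved with the same settings, for T2M against eosinophils to 151 without moderation and 360 with the replicate block, in place of 812.

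Differences that changed sign were uncalled ones. Il9 in T2M against eosinophils was -0.0058 with a common median. Csf2 in T2M against neutrophils was -0.056 with quantile normalization and -0.086 with array weights, and -1.24 to 1.38 with single arrays left out. Il5 in eosinophils against neutrophils was 0.13 with a common median and 0.0015 with the dimmer-gene median, and Il3 against macrophages was -0.15 and -0.22 in neutrophils with quantile normalization and the dimmer-gene median and -0.019 in eosinophils with the dimmer-gene median. With single arrays left out, T2M minus neutrophils ran from -0.016 to 0.37 for Il9 and -1.19 to 0.44 for Il10. Eosinophils minus neutrophils ran from -1.20 to 0.57 for Il4, -0.23 to 0.18 for Il5, -0.16 to 0.23 for Il9, -2.05 to 0.58 for Csf2 and -0.77 to 0.87 for Il10, and neutrophils minus macrophages from -0.17 to 1.60 for Il4 and -0.13 to 0.32 for Il3. The replicate numbers were not taken as pairs, since same-numbered arrays correlated in their deviations from label means at -0.18 to 0.498, above 0.1 in 2 of 12 pairs, both of T2M with eosinophils; the replicate block in effect drops T2M replicate 3.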
